A study of Homo sapiens with 2 samples.

Results

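The genes described here encode 50 proteins that select DNA replication origins, load and start the replicative helicase, copy the DNA at the fork and finish the new strands. They were chosen by symbol from a list of replication factors, with earlier results of these data known. All 50 were found among the 22585 gene symbols of the tables. By role, 9 belong to origin licensing, 15 to the helicase and its activation, 9 to the polymerases and primase, 6 to the sliding clamp and its loader, 5 to strand maturation and single-strand binding, and 6 to chromatin assembly and fork protection. They were measured by RNA sequencing in 2 cultures of 786-O, a kidney cancer cell line that has lost the VHL tumour suppressor. The medium of 1 culture held 25 mM glucose, and that of the other 0 mM. No other treatment or genetic change is named for either culture. The labels add a code to each culture, LucF (25 mM) and LucG (0 mM), and the sources used here explain neither these codes nor the time spent without glucose.

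Replication starts from origins marked by the origin recognition complex, ORC. In G1 phase ORC, CDC6 and CDT1 load rings of MCM2 to MCM7 onto DNA, and in S phase the kinase CDC7 with DBF4, together with CDC45, the GINS complex and MCM10, turns the loaded ring into the moving helicase. Polymerase alpha with primase lays primers, polymerases epsilon and delta extend them on the clamp PCNA, and FEN1 and LIG1 join the lagging-strand pieces. Many of these genes are known to be transcribed around the entry into S phase under E2F transcription factors, so that their transcripts are often used as signs of cycling cells.

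Depth was 27317584 counts with glucose and 31345828 without. Levels are given as CPM, counts relative to a library size adjusted by the TMM method, and levels of different genes are set against each other as CPM per kilobase of gene model. With 1 library for each condition there was no replicate check and no test, and higher or lower refers to these 2 libraries. The interval printed with a fold is an exact 95% Clopper-Pearson interval that covers counting error only. A gene was called lower when this interval lay wholly beyond a 2-fold decrease, and higher when it lay wholly beyond a 2-fold increase. Folds of genes that passed neither bound are given as values only. Markers of kidney epithelium were present, with 15 of 16 measured and PAX8, a renal lineage transcription factor, at 244 and 232 CPM. Of these 15 markers 3 were lower, 1 was higher and 11 were neither. CDH6, a cadherin of the kidney tubule, stood at 192 and 8.36 CPM (log2 ratio -4.52), LHX1 19.5 and 3.38 CPM (-2.53) and CA12 38.6 and 16.1 CPM (-1.26), while EPAS1, which encodes HIF-2 alpha, had 134 and 422 CPM (1.65). The ratios of CDH6 and LHX1 were below that of every replication gene described here, and the part of such a shift in the replication results was not tested. These 4 genes are the ones of the list that passed a bound. Of leukocyte markers 3 of 8 were measured, with a summed level of 265 CPM with glucose and 346 CPM without that came mostly from LCP1 (253 and 320 CPM) and CD68 (10.7 and 25.6 CPM). Endothelial markers, with 2 of 5 measured, summed to 2.33 and 0.683 CPM. Fibroblast markers, with 6 of 8 measured, summed to 18.3 and 8.82 CPM. The haemoglobin genes HBA1 and HBA2 were at 0 in both libraries.

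Transcripts of the replication genes together were less abundant without glucose. Of the 50 genes, 24 were lower and 0 higher by the rule of size, where 6.20% of the 14239 measured genes were lower and 3.76% higher. The median log2 ratio of the 50 genes was -1.11, against 0.02 for all measured genes. Together they took 4755 CPM with glucose and 2313 CPM without. The ratio was below 0 for 47 genes and above it for RFC1, POLE2 and TIPIN. Among all 14239 measured genes it was below 0 for 6987 and above it for 7252. All 50 passed the minimum of 20 counts over both libraries, with 89 to 17860 counts in a library, and among the 10914 measured genes with at least as many counts as the least counted of them, 6.25% were lower and 3.49% higher. In RNA from whole cultures, fewer cells in S phase and less of each transcript per cell cannot be told apart. The genes lie on 20 chromosomes, with at most 6 on any of them.

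**Figure D1:**
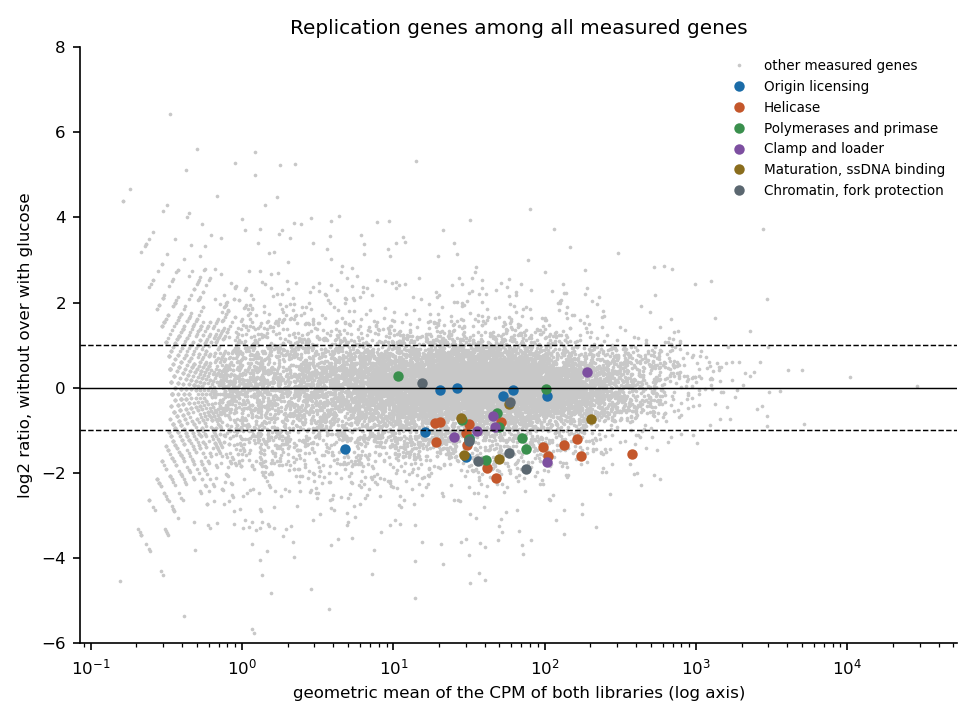
Each grey point is a measured gene, with the geometric mean of its CPM in both libraries on the horizontal log axis and its log2 ratio, without over with glucose, on the vertical axis. Coloured points are the 50 replication genes by role, dashed lines mark 2-fold, and 10 measured genes with 0 counts in a library are not drawn. The replication genes lie from -2.13 to 0.36, mostly below the middle of the grey cloud.

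The RNA make-up of the libraries also differed. The share of counts in small RNA genes was 6.38% with glucose and 8.69% without. With these genes left out of the scaling, 24 of the 50 replication genes were lower, against 6.22% of measured genes. Over the shortest 10% of measured gene models the log2 ratio had a median of 0.31, and over the longest 10% of -0.21. Replication gene models ran from 1175 to 8459 bases, and the median log2 ratio was -1.02 for the 25 up to the median length (9 were lower) and -1.20 for the 25 above it (15 were lower).

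The promoters of these genes were searched for the E2F consensus, spelled TTTCCCGC, TTTCGCGC, TTTGCCGC or TTTGGCGC, because they share timing in the cell cycle. RefSeq windows of GRCh38.p14, from 250 bases before to 50 after a transcription start, were matched for 44 of the 50 genes, and MCM4, MCM5, GINS4, POLD3, RPA2 and RPA3 were not matched. On either strand, 24 of 57 windows of the replication genes (42.1%) held a match, against 3.3% of all 35116 windows. By gene, 23 of 44 had a match in any window, against 4.0% of 27305 genes. These backgrounds hold all RefSeq windows, of genes measured here or not, and were not matched for base composition. A match was found for 15 of the 21 genes that were lower and for 8 of the 23 that passed neither bound. Genes with a match had a median log2 ratio of -1.28 (23 genes), and genes without one -0.82 (21 genes). The shorter CCAAT box, on either strand, was in 56.1% of the replication gene windows and 34.6% of all windows. These matches are letters in a window and say nothing of whether a factor was bound.

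The 160 bases before the start are shown for 3 genes that were lower, MCM6, PCNA and LIG1, and for 2 whose intervals spanned 0, TIPIN and ORC3, since all 5 carry the consensus. Each is read 5′ to 3′ on the strand of the gene, with GRCh38.p14 coordinates and matches in capitals. Capital runs longer than 8 bases are overlapping matches on both strands.
MCM6, chr2:135876444-135876603, minus strand: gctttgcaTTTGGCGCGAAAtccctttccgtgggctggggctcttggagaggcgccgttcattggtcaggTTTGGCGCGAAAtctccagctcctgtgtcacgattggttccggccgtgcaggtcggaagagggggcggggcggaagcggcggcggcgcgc
PCNA, chr20:5126623-5126782, minus strand: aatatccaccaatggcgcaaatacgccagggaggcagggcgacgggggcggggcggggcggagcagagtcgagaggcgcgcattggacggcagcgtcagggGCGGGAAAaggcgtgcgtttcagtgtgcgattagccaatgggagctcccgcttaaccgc
LIG1, chr19:48170345-48170504, minus strand: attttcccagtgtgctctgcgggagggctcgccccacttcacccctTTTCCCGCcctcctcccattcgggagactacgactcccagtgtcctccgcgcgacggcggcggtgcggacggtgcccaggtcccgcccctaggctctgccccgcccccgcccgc
TIPIN, chr15:66356686-66356845, minus strand: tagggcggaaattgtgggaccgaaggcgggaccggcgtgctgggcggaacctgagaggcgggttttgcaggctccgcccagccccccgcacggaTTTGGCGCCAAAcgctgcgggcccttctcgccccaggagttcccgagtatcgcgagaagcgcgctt
ORC3, chr6:87589975-87590134, plus strand: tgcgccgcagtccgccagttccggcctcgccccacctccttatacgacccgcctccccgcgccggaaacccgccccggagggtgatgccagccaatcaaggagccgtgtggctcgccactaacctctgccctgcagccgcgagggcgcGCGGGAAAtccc

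MCM6 had 4 matches in 2 overlapping pairs, the most of any replication gene, and was 3.01-fold lower without glucose. TIPIN had an overlapping pair as well, and its level was 14.9 CPM with glucose and 16.1 CPM without. The consensus was thus present in genes of both kinds.

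Of the origin licensing genes 3 of 9 were lower and 0 higher, with a median log2 ratio of -0.20. ORC1, the ATPase subunit of ORC that is made anew in each cell cycle, had 52.7 CPM with glucose against 17.01 CPM without, which is 3.10-fold lower (interval 2.80 to 3.43). The other subunits that form the core of the complex stood at nearly equal levels in both libraries. ORC2 had 20.6 and 19.9 CPM, ORC3 63.4 and 60.9 CPM, and ORC5 26.2 and 26.1 CPM, and the interval of each log2 ratio spanned 0. ORC4 had 57.0 and 49.6 CPM (1.15-fold, interval 1.07 to 1.24). ORC6, the loosely attached subunit needed for MCM loading, had 23.2 and 11.4 CPM and its interval of 1.79-fold to 2.33-fold lower reached across the bound. ORC1 and ORC6 thus lay apart from ORC2 to ORC5, with intervals that did not overlap those of the other 4.

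Among the loading factors, CDT1, which brings the MCM ring to ORC, had 218 and 89 counts, the lowest of all 50 genes, or 7.83 and 2.90 CPM (2.70-fold lower, interval 2.104 to 3.5). GMNN, geminin, which binds and blocks CDT1 after licensing, had 47.4 and 20.95 CPM (2.26-fold lower). CDC6, the ATPase that acts with ORC in loading, had 111 and 96.4 CPM, 1.15-fold lower with an interval of 1.09 to 1.21. The inhibitor geminin and its target CDT1 were therefore both lower by the 95% interval, and CDC6 was not. With a 99% interval neither CDT1 (log2 ratio -1.92 to -0.965) nor GMNN (-1.36 to -0.998) passed the bound, and ORC1 alone of the group did. The consensus was found in the promoter windows of CDT1, GMNN, CDC6 and ORC3 in this group.

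**Figure D2:**
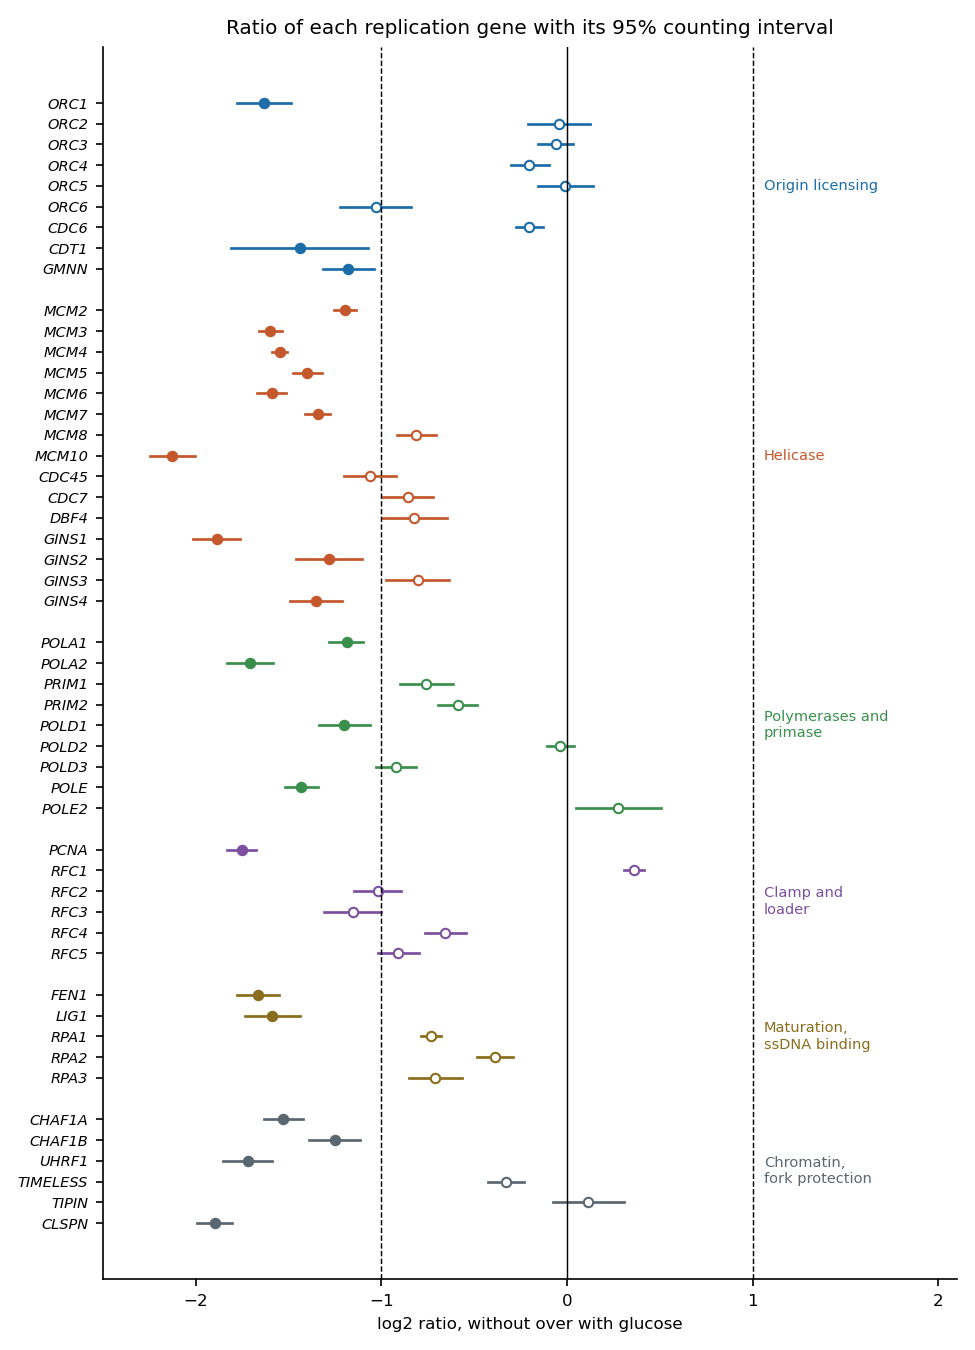
Points are log2 ratios, without over with glucose, of the 50 replication genes by role, and bars are 95% counting intervals. Filled points passed the rule of size, open points did not, and dashed lines mark 2-fold. ORC2 to ORC5, CDC6, POLD2, POLE2, RFC1, TIMELESS and TIPIN lie near or above 0, while MCM2 to MCM7 lie together between -1.60 and -1.20.

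The helicase group had 10 of 15 genes lower, 0 higher, and all 15 ratios below 0 (median -1.34). All 6 genes of the MCM2 to MCM7 ring were lower, within a narrow span of log2 ratios from -1.60 to -1.20. MCM2 had 246 CPM with glucose and 107 CPM without (2.29-fold lower, interval 2.20 to 2.39). MCM3 had 304 and 100.4 CPM (3.03-fold, 2.90 to 3.15). MCM4, the most counted of the 50 genes with 17860 and 6744 counts, had 641 and 219 CPM (2.92-fold, 2.84 to 3.01). The counting interval of MCM2 lay apart from those of MCM3 and MCM4, which overlapped. MCM5 had 158 and 59.9 CPM (2.64-fold), MCM6 182 and 60.4 CPM (3.01-fold) and MCM7 212 and 83.7 CPM (2.54-fold). MCM8, an MCM relative that acts with MCM9 in recombination and is not part of the ring, had 67.6 and 38.5 CPM (1.75-fold lower, interval 1.63 to 1.89) and did not pass the bound.

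Per kilobase of gene model, MCM4 stood highest of the ring in both libraries and MCM6 lowest. The ring genes spanned 48.7 to 182 CPM per kilobase with glucose and 16.2 to 62.4 without. The highest was 3.74 times the lowest with glucose and 3.86 times without, and the order of levels was the same in both except that MCM5 and MCM7, next to each other, changed places.

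Among the factors that start the loaded helicase, MCM10 and 3 GINS genes were lower, and the other 4 were below 0 without passing the bound. MCM10, which acts at the step where the helicase begins to unwind DNA, had 99.7 CPM with glucose and 22.9 CPM without, 4.36-fold lower (interval 4.01 to 4.75). No other replication gene of the 50 had a lower ratio. GINS1 had 80.1 and 21.7 CPM (3.70-fold lower, interval 3.39 to 4.04), GINS2 29.9 and 12.3 CPM (2.43-fold) and GINS4 48.8 and 19.1 CPM (2.55-fold). GINS3, the fourth subunit of the GINS ring that links CDC45 to the MCM proteins, had 27.0 and 15.5 CPM (1.75-fold, interval 1.55 to 1.96) and did not pass. CDC45, the third part of the active helicase, had 43.8 and 20.98 CPM, with an interval of 1.90-fold to 2.30-fold lower that reached across the bound. The kinase CDC7 had 42.5 and 23.5 CPM (1.81-fold) and its activating subunit DBF4 25.1 and 14.2 CPM (1.77-fold), and neither passed. The kinase and its activator had nearly the same ratio.

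**Figure D3:**
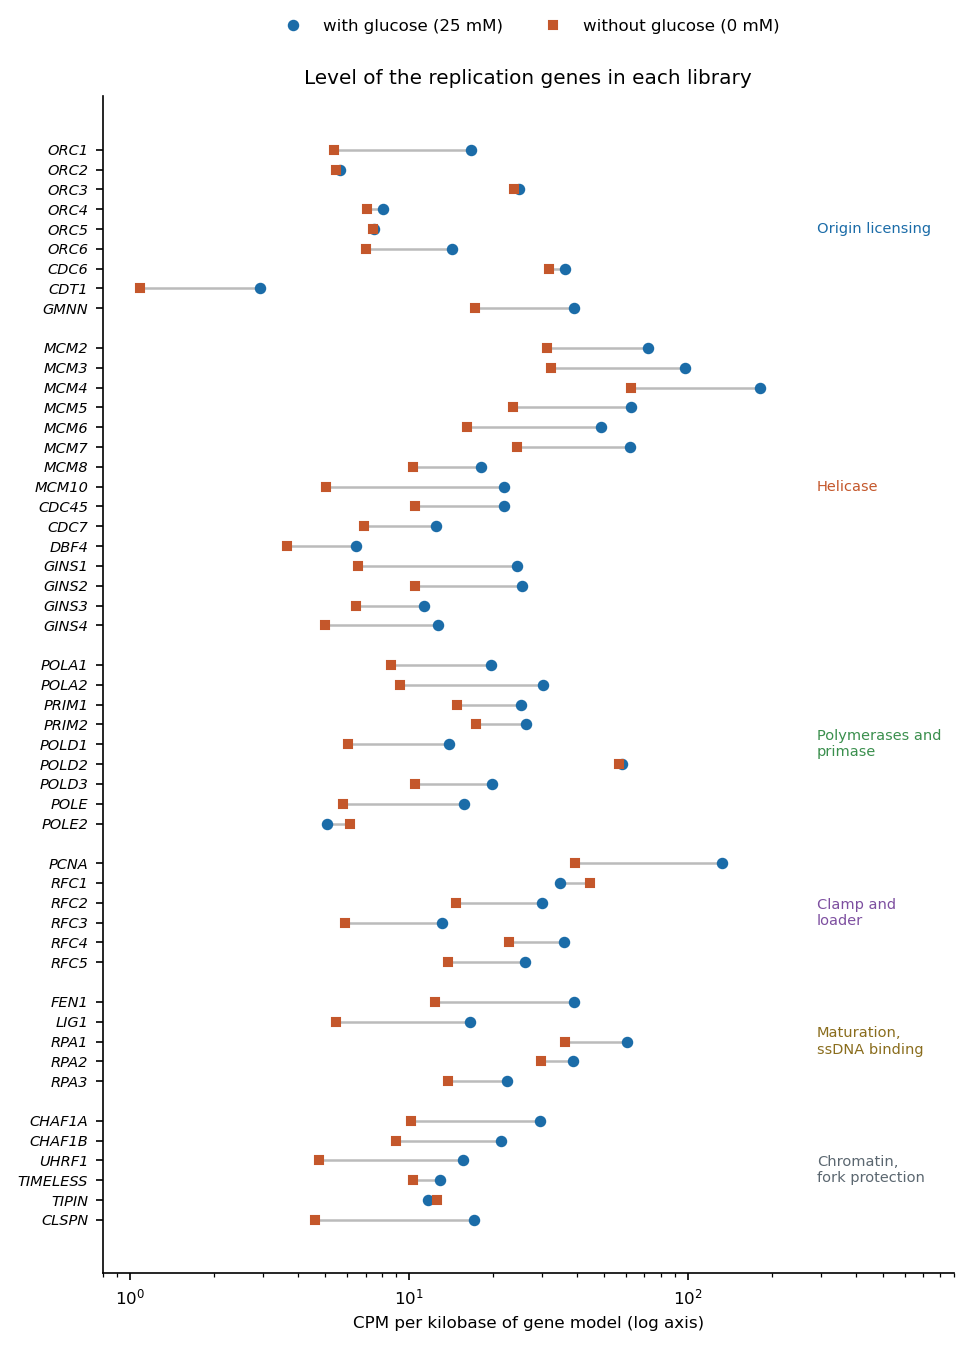
Each row is a replication gene, with its CPM per kilobase of gene model on a log axis, as a blue circle with glucose and an orange square without, joined by a line. Levels run from 1.09 for CDT1 without glucose to 182 for MCM4 with glucose, and 3 genes (POLE2, RFC1 and TIPIN) have the orange square on the right.

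The polymerase group had 4 of 9 genes lower and 0 higher (median -0.92). In the polymerase alpha-primase complex, which makes the RNA-DNA primers, POLA1, the catalytic subunit, had 107 CPM with glucose and 46.8 CPM without (2.28-fold lower, interval 2.14 to 2.43). Its accessory subunit POLA2 had 74.4 and 22.8 CPM (3.26-fold, 2.99 to 3.56). The primase subunits did not pass the bound, with PRIM1 at 36.6 and 21.7 CPM (1.69-fold, 1.53 to 1.87) and PRIM2 at 59.6 and 39.6 CPM (1.51-fold, 1.40 to 1.62). The intervals of both primase genes lay apart from those of both polymerase alpha genes. PRIM2 has a near-identical partial copy in the genome, so its count is uncertain.

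Polymerase delta, the main lagging-strand enzyme, was uneven across its subunits. POLD1, which carries the polymerase activity, had 47.5 and 20.7 CPM (2.30-fold lower, interval 2.09 to 2.53). POLD2, a structural subunit, had 103 and 100.3 CPM, and the interval of its log2 ratio, -0.11 to 0.04, spanned 0. POLD3, which POLD2 joins to the enzyme, had 68.1 and 36.0 CPM (1.89-fold, 1.75 to 2.04). POLD4, the smallest subunit and not among the 50 genes, had 459 and 635 counts (log2 ratio 0.33). The catalytic subunit of polymerase epsilon, the leading-strand enzyme, showed a similar gap to its partner. POLE had 123 and 45.4 CPM (2.70-fold lower, interval 2.53 to 2.87), while POLE2 had 9.80 and 11.9 CPM, 1.21 times as much without glucose, with an interval of 1.033 to 1.42. For both enzymes the gene of the catalytic subunit was lower and that of the second subunit was not.

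In the clamp group 1 of 6 genes was lower and 0 higher (median -0.96). PCNA, the ring that holds polymerases on DNA, had 191 CPM with glucose and 56.8 CPM without (3.36-fold lower, interval 3.19 to 3.55). It has processed pseudogenes, and the sources used here do not say how reads that match several places were counted. RFC1, the large subunit of the clamp loader, had 169 and 217 CPM, 1.28 times as much without glucose (interval 1.24 to 1.33), the highest ratio of all 50 genes. The small subunits that make up the rest of the loader all had ratios below 0. RFC2 had 50.5 and 24.9 CPM (2.027-fold lower, interval 1.86 to 2.22) and RFC3 37.6 and 16.9 CPM (2.22-fold, 1.999 to 2.47), both at the edge of the bound. RFC4 had 56.7 and 36.0 CPM (1.58-fold) and RFC5 63.9 and 34.1 CPM (1.88-fold). RFC1 therefore lay apart from the other 4 loader genes, by 1.02 or more on the log2 scale.

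Among maturation and single-strand binding genes 2 of 5 were lower and 0 higher (median -0.73). FEN1, the nuclease that trims the flaps of lagging-strand pieces, had 88.2 CPM with glucose and 27.9 CPM without (3.17-fold lower, interval 2.93 to 3.42). LIG1, the ligase that seals them, had 50.5 and 16.8 CPM (3.002-fold, 2.71 to 3.33), nearly the same ratio as FEN1. The RPA trimer, which coats single-stranded DNA in replication and repair alike, did not pass in any subunit. RPA1 had 262 and 158 CPM (1.66-fold lower, interval 1.60 to 1.72), RPA2 66.6 and 50.9 CPM (1.31-fold, 1.22 to 1.40) and RPA3 35.8 and 21.9 CPM (1.64-fold, 1.48 to 1.81). All 3 intervals lay apart from those of FEN1 and LIG1. LOC729852, on the opposite strand, overlaps 95.4% of the span of RPA3, so the count of RPA3 is uncertain.

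In the group of chromatin assembly and fork protection 4 of 6 genes were lower and 0 higher (median -1.39). CHAF1A and CHAF1B encode the large and middle subunits of CAF-1, the chaperone that places histones H3 and H4 on new DNA behind PCNA. CHAF1A had 98.1 and 34.0 CPM (2.88-fold lower, interval 2.68 to 3.10) and CHAF1B 48.4 and 20.3 CPM (2.38-fold, 2.16 to 2.62). UHRF1, which brings the maintenance DNA methyltransferase to new DNA, had 66.1 and 20.1 CPM (3.29-fold, 3.003 to 3.61). CLSPN, claspin, which carries the checkpoint signal from ATR to CHEK1 and sets fork speed, had 145 and 39.0 CPM (3.73-fold, 3.49 to 3.98). The genes of its partners in the fork protection complex did not pass the bound. TIMELESS had 66.4 and 52.8 CPM (1.26-fold, interval 1.18 to 1.34), and TIPIN, which binds TIMELESS, had 14.9 and 16.1 CPM with an interval of the log2 ratio, -0.08 to 0.31, that spanned 0.

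Across complexes, the interval of the log2 ratio lay wholly below 0 for 43 genes, spanned 0 for 5 and lay wholly above 0 for 2. At high counts such intervals leave out 0 for small shifts, and the same shares over all measured genes are not given here. The 4 genes with a point estimate past 2-fold and an interval that reached the bound were ORC6, CDC45, RFC2 and RFC3. The counts followed the size asked for. At 1.5-fold 36 of the 50 genes were lower and 0 higher, where 12.6% of measured genes were lower and 10.2% higher, and at 4-fold 1 was lower (MCM10), where 1.03% were lower and 0.857% higher. With a 99% interval 22 were lower (5.47% of measured genes lower, 3.20% higher), and by the point estimate alone 28 (10.6% lower, 7.34% higher). Just inside the 2-fold bound was GMNN, whose interval ended at -1.04, and just outside was RFC3, whose interval ended at -0.999. The spread of log2 ratios within a complex was 0.40 for MCM2 to MCM7, 0.34 for the RPA subunits and 0.50 for RFC2 to RFC5. It was 1.62 for the 6 ORC subunits, 1.08 for the 4 GINS subunits and 1.12 for polymerase alpha-primase.

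In hg19 coordinates, with starts as the tables give them, MCM10 spans bases 13203554 to 13253104 of chromosome 10 on the plus strand. All other genes located in the next sentences are on the minus strand. PCNA spans bases 5095599 to 5107268 of chromosome 20. CLSPN spans 36197713 to 36235551 and ORC1 52838501 to 52870143 of chromosome 1. RFC1 spans 39289076 to 39367995 of chromosome 4, POLE2 50110270 to 50155098 of chromosome 14 and TIPIN 66629008 to 66649054 of chromosome 15.

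Other gene models overlapped 8 of the 50 genes. In MCM7, on the minus strand of chromosome 7 from 99690404 to 99699427, the same strand holds the 3 microRNA genes MIR106B, MIR93 and MIR25. MicroRNAs are short RNAs that pair with messages through the seed, bases 2 to 8, shown in capitals in the main mature forms of these 3 genes from RefSeq (GRCh38.p14).
hsa-miR-106b-5p: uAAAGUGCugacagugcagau
hsa-miR-93-5p: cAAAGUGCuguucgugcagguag
hsa-miR-25-3p: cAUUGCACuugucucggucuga
The first and second share the seed AAAGUGC and the third has AUUGCAC.

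The small RNA genes inside MCM7 and POLA1 did not share the ratio of their hosts. MIR106B had 66 counts with glucose and 109 without, MIR93 158 and 227, and MIR25 68 and 96, while MCM7 itself was 2.54-fold lower. Their log2 ratios were 0.58 (interval 0.13 to 1.05), 0.38 (0.08 to 0.68) and 0.36 (-0.11 to 0.83), and none passed the bound. SCARNA23, a Cajal body RNA inside POLA1, had 214 and 399 counts (log2 ratio 0.76) where POLA1 was 2.28-fold lower. SCARNA14, inside TIPIN, had 1399 and 2072 counts (0.42, interval 0.326 to 0.523). The ratio of TIPIN was 0.115, with an interval of -0.076 to 0.306 that spanned 0 and lay just apart from that of SCARNA14. All small RNA genes together took a larger share of the counts without glucose, as given above, and the part of this shift in the difference from the hosts was not tested. Mature microRNAs are too short for many RNA-seq libraries, and these counts do not tell hairpins, mature forms and host introns apart.

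On the opposite strand, the neighbours with at least 20 counts over both libraries were ACVR2A and MBD5 at ORC4, EIF4A2 at RFC4, LOC729852 at RPA3, SLC25A40 at DBF4 and AP4M1 at MCM7. Of these EIF4A2, a translation initiation helicase, had 6557 and 12149 counts (log2 ratio 0.75) beside RFC4 with 1578 and 1106. SLC25A40, a mitochondrial carrier, had 1108 and 1993 (0.71) beside DBF4 with 700 and 437. ACVR2A, an activin receptor, had 6.21 and 10.9 CPM (0.81) and MBD5 27.8 and 12.5 CPM (-1.16), one at each end of ORC4. LOC729852 had 643 and 834 (0.23) beside RPA3 with 996 and 672, and AP4M1, an adaptor subunit, 219 and 261 (0.11). The extent of overlap differed widely. LOC729852 overlapped 95.4% of the span of RPA3, introns included. The share was 3.29% for AP4M1 in MCM7, 0.44% for SLC25A40 in DBF4 and 0.018% for EIF4A2 in RFC4. In ORC4 it was 0.47% for ACVR2A and 0.65% for MBD5. PCNA-AS1, antisense to PCNA, had 0 counts in both libraries. The sources used here do not say whether counting used the strand, so reads in an overlap cannot be told apart. Without the 8 overlapped genes 21 of 42 were lower, with a median of -1.16, against 6.18% of measured genes lower and 3.76% higher.

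**Figure D4:**
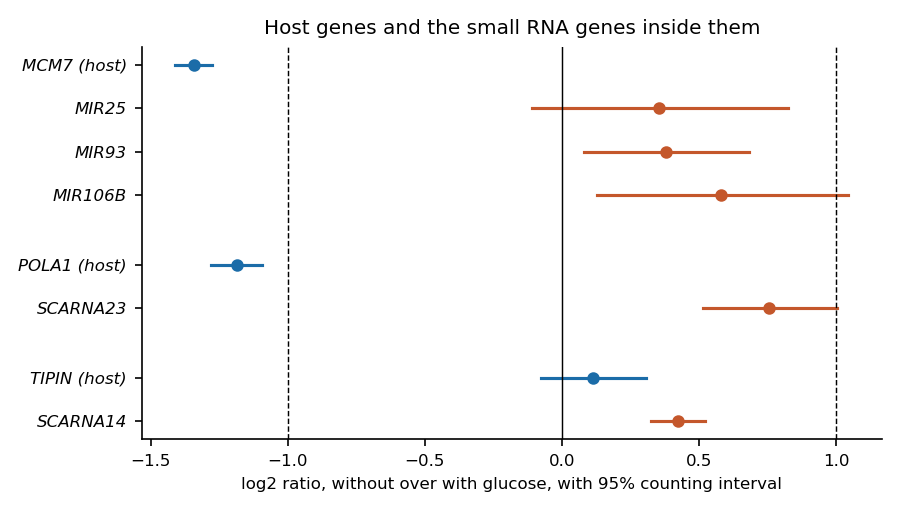
Points are log2 ratios, without over with glucose, and bars 95% counting intervals, for 3 replication genes in blue and for the small RNA genes that lie inside them on the same strand in orange. MCM7 and POLA1 lie below -1 and the small RNA genes inside them above 0.

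A further list of 48 replication genes outside the 50 had 15 lower (31.2%) and 0 higher, with a median log2 ratio of -0.71. Of all measured genes 6.20% were lower and 3.76% higher. ASF1B, a histone chaperone of dividing cells, had 36.7 and 7.68 CPM (4.79-fold lower, interval of the log2 ratio -2.47 to -2.05). TOP2A, the topoisomerase that untangles copied DNA, had 1064 and 259 CPM (4.12-fold lower). C15orf42, the older symbol of TICRR, which helps CDC45 bind the MCM ring, had 71.1 and 18.2 CPM (3.91-fold), and ATAD5, which unloads PCNA, 68.0 and 18.1 CPM (3.77-fold). At the other end POLE4, a small subunit of polymerase epsilon, had 279 and 542 counts (0.82) and MCM9, the partner of MCM8, 250 and 390 counts (0.50). The paralogs ASF1A (1616 and 1394 counts, -0.36) and TOP2B (7850 and 6636 counts, -0.39) were among the 33 of 48 genes that passed neither bound. The last 4 genes and POLD4 were chosen after their values were seen.

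For comparison, 3 further lists, also chosen with earlier results of these data known, were described in the same way. Of 43 kinetochore and spindle genes, which act in mitosis, 29 were lower and 0 higher (median -1.46), led by SPC24 (436 and 92 counts, 5.23-fold lower), INCENP (4.51-fold), NDC80 (4.26-fold) and CENPA (4.201-fold). Of 14 translesion and repair polymerase genes 1 was lower, POLQ (101.5 and 36.8 CPM, 2.76-fold), with a median of -0.06. That is 7.14% of the list, near the 6.20% of all measured genes. HLTF, a helicase-like ligase that modifies PCNA, had a log2 ratio of -0.95, POLM 0.68 and POLI 0.75. HLTF, RAD18, SHPRH and MAD2L2 are in this list but are not polymerases. Of 13 genes that copy mitochondrial DNA 0 were lower and 0 higher (median 0.04). Their ratios ran from -0.82 for C20orf72 (the nuclease MGME1) and -0.47 for CCDC111 (the primase PRIMPOL) to 0.45 for TFB2M and 0.63 for TOP1MT. Differences between these lists and the 50 genes were not tested, as there was 1 library for each condition.

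**Figure D5:**
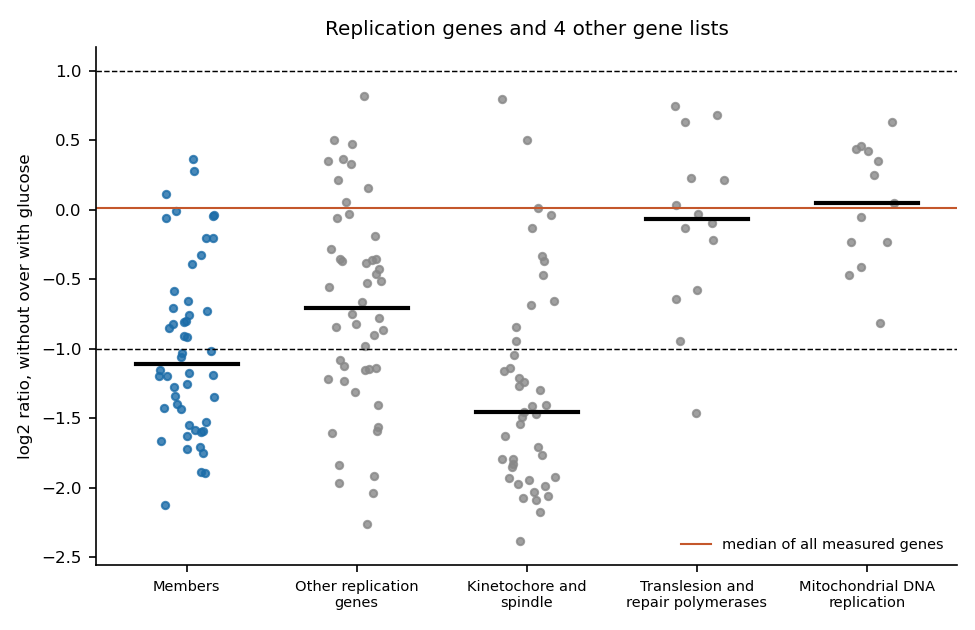
Each point is the log2 ratio, without over with glucose, of a gene in a list, with black bars at the list medians, a line at the median of all measured genes and dashed lines at 2-fold. The 50 replication genes (blue, median -1.11) and the kinetochore list (-1.46) lie lowest, and the mitochondrial list (0.04) lies around 0.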

How the data were processed

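Total RNA of 786-O cells was prepared with Trizol (labels' protocols). Coordinates are on hg19, the build named in the submitters' processing notes. The aligner, counter, use of strand and library kit are not stated in the sources. Each table held 24364 gene models. All results use the deposited counts, which are raw reads per gene model, per the file headers. The deposited RPKM values, per the file headers scaled to length and depth, served as an alternative, and the other deposited values used, per the file headers, were numbers of exons with more than 10 reads. Rows that repeated the place and counts of another symbol (538) were dropped and counts summed by symbol. TMM factors (1.02 with glucose, 0.981 without) came from edgeR 4.0.16 in R 4.3.3, over genes with at least 20 counts, and other steps ran in Python 3.11.15 (pandas 2.3.3, scipy 1.17.1). PCR copies are not independent molecules, so intervals cover counting error only. Tested on simulated data of 14239 genes with counting error only, the rule called 100% of the genes that were changed 4-fold. The changed genes were picked from the better counted ones. Of the 50 replication genes only MCM10 was past 4-fold, so this share does not describe the rule at the folds of the others. Of the intervals 95.8% held the true ratio. The simulation held no variation between cultures or from PCR, so it checks the calculation and not these libraries. The 50 genes, their groups and the lists were chosen with earlier results of these data known. All 50 genes are named, with up to 4 genes of each other list that had at least 5 CPM and the largest absolute log2 ratios, and overlapping gene models with at least 20 counts. Alternatives in scaling, minimum counts, fold bound, interval level and unit were run.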

Additional observations from a re-analysis of the deposited data

How the results depend on the processing

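With 1 library for each condition no replicate could be left out, and no replicate error exists for any value. No paired analysis was possible because there was 1 library per condition. The median log2 ratio of the 50 genes stayed between -1.16 and -1.07 under every alternative run. The fold bounds, interval level and count minimums that were run cannot change these ratios, and each scaling shifts all of them by about the same amount. Shifts of the size seen could not change the sign of a gene called lower, and none changed. Scaling moved single log2 ratios by -0.06 to 0.04, and the values next to 0 of 2 genes changed sign with upper-quartile scaling and of 1 with small RNA genes left out. The number of genes lower depended on the size asked for. It was 36 of 50 at 1.5-fold and 1 at 4-fold (MCM10). At 4-fold, where 1.03% of measured genes were lower, the helicase group had 1 lower. Origin licensing, polymerases, clamp and loader, maturation and chromatin had 0. The other replication list had 2 of 48, kinetochore 2 of 43 and translesion 0 of 14. At 1.5-fold, where 12.6% of measured genes were lower, the other replication list had 24 of 48 and clamp and loader 4 of 6. The mitochondrial list had 1 of 13 and translesion 2 of 14, both near that share. The clamp and loader count, 1 with the main settings, was 2 with scaling by total counts, with median-of-ratios scaling and with 1 CPM added, 3 by point estimate or by RPKM, and 0 with overlapped genes left out, since PCNA was then not counted. With a 99% interval the origin licensing count was 1 (ORC1), as CDT1 and GMNN lost their calls. At the counts of these genes counting error alone gave log2 intervals of ±0.04 to ±0.37.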

Other observations

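The tables also give the number of exons of each gene model with more than 10 reads. It was lower without glucose for 18 of the 50 replication genes, higher for 4 and equal for 28. The library without glucose held more counts. The same shares over all measured genes are not given here, so these numbers are not set against a background. UHRF1 went from 16 to 8 of its 18 exons, CDT1 from 7 to 2 of 10, and LIG1 from 26 to 20 of 28. The 4 genes with more such exons without glucose were ORC2 (14 and 16 of 19), MCM7 (16 and 17 of 17), POLE2 (13 and 17 of 20) and RFC5 (12 and 13 of 14). ORC2 and POLE2 were within 2-fold by their counts, and this number follows both the count of a gene and the depth of the library, so it is given as a description only.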
